A study of Mus musculus with 12 samples.

Results

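De novo fatty acid synthesis is the route by which the liver builds palmitate from small carbon units. The citrate carrier Slc25a1 moves citrate out of mitochondria, Acly splits it into acetyl-CoA, and Acss2 makes acetyl-CoA from acetate. Acaca and Acacb carboxylate acetyl-CoA to malonyl-CoA, and Fasn builds palmitate from it. The transcription factors SREBP-1 (Srebf1) and ChREBP (Mlxipl) switch these genes on in response to insulin and to glucose, and Thrsp (Spot 14) is a small lipogenic protein whose RNA follows the same signals. These 9 genes, matched by symbol, are described here among the 41325 genes of the deposited tables, and all 9 had enough reads to be tested.

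The libraries came from liver of C57BL/6J mice labelled wild type, in 3 groups of 4. CDDO-Me livers were from mice fed CDAHFD, a choline-deficient high-fat diet that induces non-alcoholic steatohepatitis (NASH), and given CDDO-Me at 10 mg/kg by mouth, with 8 weeks of dosing. CDDO-Me (bardoxolone methyl) is a triterpenoid that activates the stress-response factor NRF2. NASH vehicle livers had the same diet label with vehicle, and control livers were labelled as controls with vehicle. No age or sex is given in the labels used here, and the replicate numbers are not said to link animals. The p-values below measure the spread between these libraries.

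Each library held 28161057 to 33852338 reads on genes, and the 9 genes had 263 reads (Thrsp, lowest library) to 13992 reads (Fasn, highest library). Levels are given as CPM, reads scaled to a common library size after TMM scaling, a method that sets the bulk of genes level between libraries. TPM, which also divides by exon length, is used where genes are compared with each other. Of 16 hepatocyte markers, 13 were lower and 1 higher in NASH vehicle livers than in control livers, where 30.0% of all genes were lower and 29.6% higher. With library totals in place of TMM 8 markers were lower and 3 higher, and on the log2(TPM + 1) scale 7 and 3. Their summed level was 60054 to 92362 CPM in NASH vehicle livers, against 124028 to 149754 CPM in control livers. In CDDO-Me livers that sum was 56535 to 84863 CPM. Of 10 macrophage markers, 10 were higher in NASH vehicle than in control livers and 7 were lower in CDDO-Me than in NASH vehicle livers (7.24% of all genes lower). Of 6 stellate cell markers 5, and of 6 cholangiocyte markers 4, were higher in NASH vehicle than in control livers. Of 8 adipocyte markers, 5 were at 0 in at least 1 library, among them Adipoq and Lep, and the list summed to 28.1 to 42.8 CPM in any library. The smooth muscle marker sum was highest in the third control library (449 CPM) and the fourth CDDO-Me library (166 CPM), so counts were also made without these 2 libraries. In bulk liver, fewer cells of a type and less RNA per cell cannot be told apart.

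The stretches of DNA just before the start sites of Fasn, Thrsp, Slc25a1 and Acss2 are shown because Fasn and Thrsp are the synthase and the gene that moved furthest with disease, and Slc25a1 and Acss2 are the pair that went up with CDDO-Me. They are the 250 bases before the RefSeq start site on GRCm38.p6, 5′ to 3′ on the gene's strand. Capitals mark CCAAT (the NF-Y box), GGGCGG (the GC box), CACGTG (an E box) and TGACNNNGC (the core of the antioxidant element), each searched on both strands. Fasn lies at chr11:120824548-120824797 on the minus strand, Thrsp at chr7:97417551-97417800 on the minus strand, Slc25a1 at chr16:17928220-17928469 on the minus strand and Acss2 at chr2:155517793-155518042 on the plus strand.
Fasn: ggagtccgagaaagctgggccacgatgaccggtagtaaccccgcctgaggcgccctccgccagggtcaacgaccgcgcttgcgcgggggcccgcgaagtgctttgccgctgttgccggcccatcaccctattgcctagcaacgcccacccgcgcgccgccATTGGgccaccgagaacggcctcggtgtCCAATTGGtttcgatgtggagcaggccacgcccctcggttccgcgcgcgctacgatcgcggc
Thrsp: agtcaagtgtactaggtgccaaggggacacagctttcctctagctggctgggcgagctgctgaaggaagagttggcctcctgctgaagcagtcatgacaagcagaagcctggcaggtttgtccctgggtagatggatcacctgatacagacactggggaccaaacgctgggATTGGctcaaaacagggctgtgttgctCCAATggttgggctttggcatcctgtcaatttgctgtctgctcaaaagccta
Slc25a1: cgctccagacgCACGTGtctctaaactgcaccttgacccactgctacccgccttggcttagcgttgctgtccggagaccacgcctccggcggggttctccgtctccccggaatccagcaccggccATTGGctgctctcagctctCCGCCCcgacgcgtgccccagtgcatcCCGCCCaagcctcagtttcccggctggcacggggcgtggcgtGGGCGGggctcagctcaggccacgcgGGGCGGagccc
Acss2: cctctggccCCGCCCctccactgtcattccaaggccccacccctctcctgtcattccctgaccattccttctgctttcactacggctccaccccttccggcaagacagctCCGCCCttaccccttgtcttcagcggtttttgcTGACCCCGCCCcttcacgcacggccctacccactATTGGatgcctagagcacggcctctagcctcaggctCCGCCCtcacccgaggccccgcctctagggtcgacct

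The Fasn stretch held 3 CCAAT matches, of which 1 pair on opposite strands shares bases, and the Thrsp stretch held 2. Slc25a1 had 1 CCAAT, 1 CACGTG and 4 GGGCGG matches, and Acss2 had 1 CCAAT, 4 GGGCGG and 1 TGACNNNGC match, the last overlapping a GC box. All 9 genes matched the RefSeq table, with 12 start sites in all. CCAAT was found in 8 of these 12 stretches, covering 7 of the 9 genes (not Acaca or Acly), against 33.8% of 32851 stretches of the same length. GGGCGG was found in 6 of the 12, covering 5 genes (32.7% of all stretches), CACGTG for Mlxipl and Slc25a1 (6.02%), TGACNNNGC for Acss2 alone (10.2%), and the sterol element TCACNCCAC for Mlxipl alone (1.05%). These are letter matches, not measured binding. The Acaca stretch (chr11:84195188-84195437) and the Acacb stretch (chr5:114165268-114165517) lie inside the gene spans given below. The DNA before the starts of those 2 spans was not searched. The Thrsp and Acss2 stretches overlap the ends of their gene spans.

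**Figure D1:**
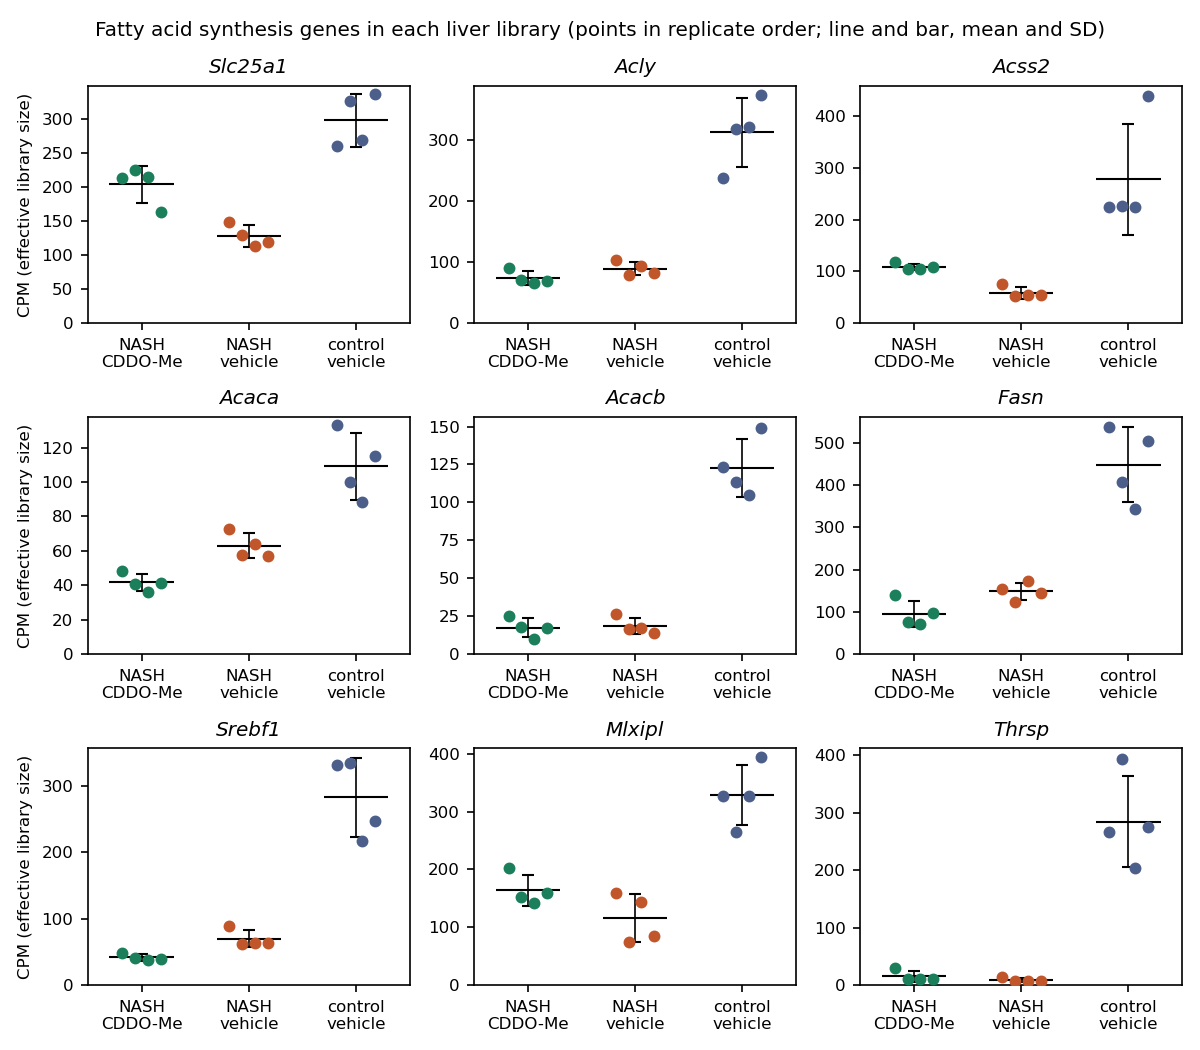
CPM of each of the 9 genes in every library (points, in replicate order), with CDDO-Me livers at the left, NASH vehicle livers in the middle and control livers at the right of each panel; the line and bar are the mean and SD of 4 libraries. For all 9 genes every CDDO-Me and every NASH vehicle library lies below the control libraries.

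With TMM scaling, all 9 genes were called lower with disease. With library totals and on the log2(TPM + 1) scale 8 of the 9 were called lower, all but Acaca. The median log2 fold change of NASH vehicle over control livers was -1.81 for the 9 genes and -0.01 over the 16456 genes tested. In edgeR's quasi-likelihood test, adjusted over all genes by the Benjamini-Hochberg method, 9 of 9 were lower at an adjusted p under 0.05, where 30.0% of all genes were lower and 29.6% were higher. The 4 NASH vehicle libraries lay below the 4 control libraries for 9 of 9 genes, and 54.4% of all genes had groups that do not overlap. With CDDO-Me, the genes split: Slc25a1 and Acss2 rose over NASH vehicle livers, Acaca and Srebf1 fell, and 5 did not pass. The background in that comparison was 9.39% of genes higher, 7.24% lower and 21.6% not overlapping.

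**Figure D2:**
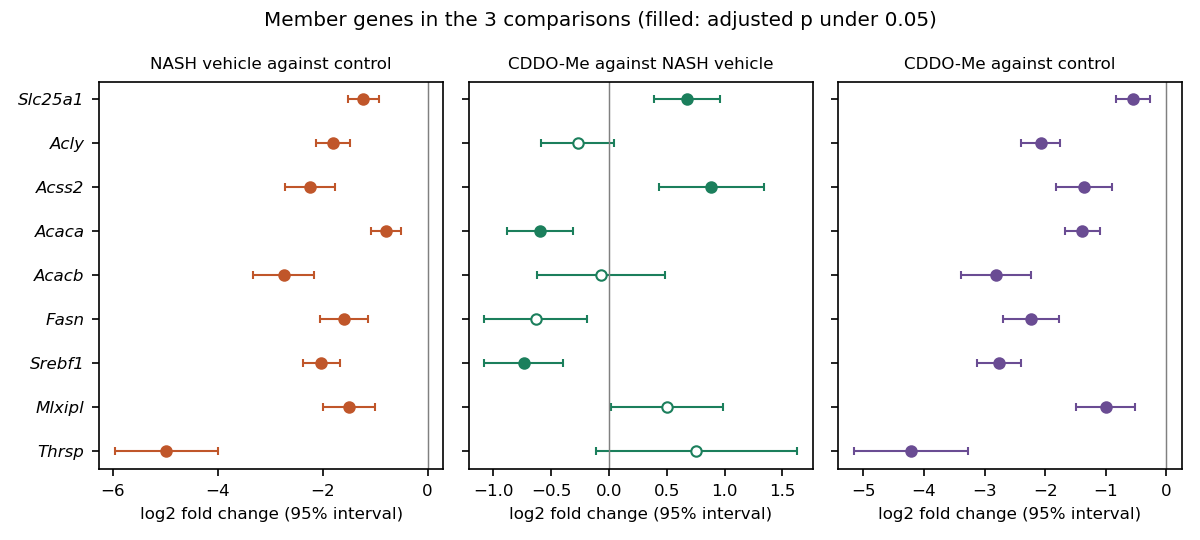
Log2 fold changes of the 9 genes (edgeR) with 95% intervals, in NASH vehicle over control livers (left), CDDO-Me over NASH vehicle livers (middle) and CDDO-Me over control livers (right); filled points have an adjusted p under 0.05. All 9 points lie below 0 at the left and right, and in the middle panel 2 filled points lie above and 2 below.

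The first step is the supply of acetyl-CoA. Slc25a1 (ENSMUSG00000003528, chr16:17925223-17928219 on GRCm38) encodes the mitochondrial citrate carrier. It had 212.7, 224.2, 213.9 and 162.8 CPM in CDDO-Me livers, 148.9, 129.6, 113.3 and 118.7 CPM in NASH vehicle livers, and 259.3, 325.3, 268.6 and 336.7 CPM in control livers. The 3 groups did not overlap, with CDDO-Me between the other two. The log2 fold change was -1.22 ± 0.13 (SE) in NASH vehicle over control livers (edgeR adjusted p = 5.3e-06) and 0.67 ± 0.13 in CDDO-Me over NASH vehicle livers (edgeR adjusted p = 0.0042). Slc25a1 had the highest TPM of the 9 genes in every group, at 249.9 ± 25.9 in CDDO-Me, 182.3 ± 10.9 in NASH vehicle and 240.0 ± 31.8 in control livers (SD, n = 4 each).

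Acly (chr11:100476353-100528000), ATP citrate lyase, cuts exported citrate into acetyl-CoA and oxaloacetate. Its level was 90.9, 69.7, 66.1 and 69.4 CPM in CDDO-Me livers, 103.4, 78.7, 92.96 and 81.9 CPM in NASH vehicle livers, and 236.8, 318.2, 321.9 and 372.8 CPM in control livers. The 2 NASH groups overlapped, and both lay far below the control libraries. Acly fell by 1.81 ± 0.15 on the log2 scale in NASH vehicle livers (edgeR adjusted p = 5.6e-07). The CDDO-Me difference from NASH vehicle livers was -0.27 ± 0.15 and did not pass (edgeR adjusted p = 0.24, 95% interval -0.59 to 0.05).

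Acss2 (chr2:155517948-155585724), the cytosolic and nuclear acetyl-CoA synthetase that uses acetate, had 117.5, 104.5, 104.0 and 108.9 CPM in CDDO-Me livers, 76.5, 51.6, 53.9 and 53.7 CPM in NASH vehicle livers, and 225.2, 225.6, 223.9 and 439.3 CPM in control livers. The groups did not overlap. The fourth control library and the first NASH vehicle library stood above the rest of their groups. Acss2 was at -2.24 ± 0.22 in NASH vehicle over control livers (edgeR adjusted p = 2.4e-06) and at 0.89 ± 0.21 in CDDO-Me over NASH vehicle livers (edgeR adjusted p = 0.013). On the log2(TPM + 1) scale this last value was 0.61 and no longer passed (limma adjusted p = 0.056).

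The Acss2 gene shares 22544 bases with Gss, the glutathione synthase gene on the opposite strand, and no strand setting of the counting is stated. Gss had 227.4 ± 43.9 CPM in CDDO-Me livers, 119.2 ± 10.8 CPM in NASH vehicle livers and 88.3 ± 6.61 CPM in control livers (SD, n = 4 each), so it too was high where Acss2 was high with CDDO-Me. Of the Acss2 reads of all libraries, 93.6% were counted as unique. By library the share was 86.8 to 91.7% in CDDO-Me, 91.5 to 94.4% in NASH vehicle and 94.8 to 96.3% in control livers. It was lowest in the group where Gss was highest. Reads across exon-exon junctions of Acss2, an alternative chosen after seeing the data, came to 57.2 to 67.7 CPM in CDDO-Me livers, 29.96 to 45.2 CPM in NASH vehicle livers and 139.1 to 274.6 CPM in control livers. The junction groups did not overlap either, and the log2 fold change of CDDO-Me over NASH vehicle on those reads was 0.86 (edgeR adjusted p = 0.017). Srebf1 shares only 109 bases with Rai1 on the opposite strand.

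The carboxylases make malonyl-CoA. Acaca (chr11:84129672-84401651) encodes the cytosolic form, whose product feeds Fasn. It had 48.1, 41.0, 35.8 and 41.6 CPM in CDDO-Me livers, 72.9, 57.5, 64.2 and 57.1 CPM in NASH vehicle livers, and 132.9, 100.2, 88.3 and 114.9 CPM in control livers. The 3 groups formed 3 separate steps, with CDDO-Me lowest. The log2 fold change was -0.79 ± 0.13 in NASH vehicle over control livers (edgeR adjusted p = 0.00016) and -0.60 ± 0.13 in CDDO-Me over NASH vehicle livers (edgeR adjusted p = 0.0081). The lower level with disease depended on scaling: it was -0.16 with library totals alone (edgeR adjusted p = 0.33) and 0.11 on the log2(TPM + 1) scale (limma adjusted p = 0.53).

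Acacb (chr5:114146535-114250761) encodes the form at the outer mitochondrial membrane, whose malonyl-CoA restrains fatty acid entry into mitochondria. Its level was 25.1, 17.7, 10.1 and 16.9 CPM in CDDO-Me livers, 26.3, 16.3, 17.2 and 13.7 CPM in NASH vehicle livers, and 123.1, 113.1, 105.1 and 149.3 CPM in control livers. The NASH groups overlapped fully. Acacb fell by 2.74 ± 0.27 on the log2 scale in NASH vehicle livers (edgeR adjusted p = 4.1e-06). CDDO-Me over NASH vehicle was -0.07 ± 0.26 (edgeR adjusted p = 0.89), and its 95% interval of -0.63 to 0.49 spans both directions. It was 0.15 without the first NASH vehicle library and 0.12 without the third CDDO-Me library.

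The ratio of Acacb to Acaca within a library does not depend on how libraries are scaled. In TPM it was 0.903, 0.762, 0.5 and 0.707 in CDDO-Me livers, 0.649, 0.515, 0.462 and 0.437 in NASH vehicle livers, and 1.72, 2.22, 2.31 and 2.63 in control livers. In TPM, the cytosolic form was the more abundant RNA in every NASH library, treated or not, and the mitochondrial form in every control library. Which form is ahead depends on the exon lengths used, 17074 bases for Acaca and 9632 bases for Acacb. By total reads, the first control library had 3461 for Acaca and 3204 for Acacb, and the other control libraries had more for Acacb. The difference in log2 ratio between groups does not depend on these lengths. The log2 ratio was 2.10 lower in NASH vehicle than in control livers and 1.64 lower in CDDO-Me than in control livers (exact permutation test, two-sided, p = 0.0286 each, adjusted over 3 comparisons p = 0.043). That p is the smallest that 4 against 4 libraries can give. Between CDDO-Me and NASH vehicle livers the log2 ratio differed by 0.46 with overlapping groups (exact permutation p = 0.086, adjusted p = 0.086).

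**Figure D3:**
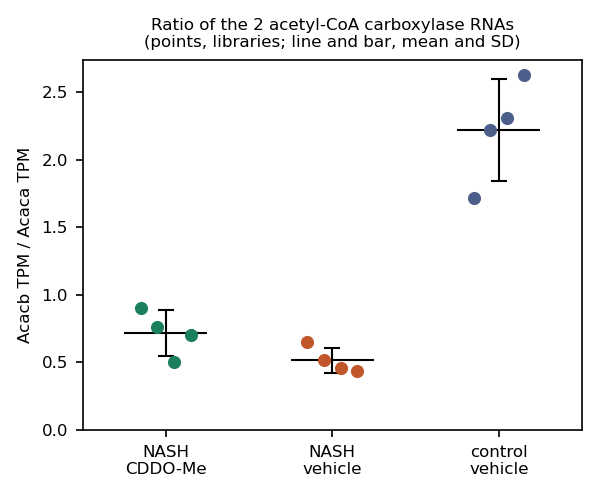
Ratio of Acacb to Acaca TPM in each library (points) with the mean and SD of 4 libraries, for CDDO-Me, NASH vehicle and control livers from left to right. All 8 NASH libraries, treated or not, lie below 1, and control libraries lie at 1.72 to 2.63.

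Fasn (chr11:120805846-120824547), fatty acid synthase, had 139.2, 75.1, 71.3 and 96.5 CPM in CDDO-Me livers, 152.9, 124.2, 171.9 and 143.8 CPM in NASH vehicle livers, and 537.4, 408.1, 342.5 and 505.1 CPM in control livers. The first CDDO-Me library reached into the NASH vehicle range, and the other three lay below it. Fasn fell by 1.60 ± 0.21 on the log2 scale in NASH vehicle livers (edgeR adjusted p = 2.6e-05). CDDO-Me over NASH vehicle was -0.63 ± 0.21 and missed the threshold (edgeR adjusted p = 0.052, 95% interval -1.08 to -0.19). Among 21 alternatives it passed in 9, among them leaving out the first CDDO-Me library, which gave -0.87 (edgeR adjusted p = 0.0075). Over all alternatives the adjusted p for Fasn ran over 0.0075 to 0.15.

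Of the regulators, Srebf1 (chr11:60199089-60222581) encodes SREBP-1, the factor that insulin and liver X receptor raise in liver. It had 48.9, 40.7, 38.2 and 39.2 CPM in CDDO-Me livers, 88.5, 62.2, 64.0 and 63.7 CPM in NASH vehicle livers, and 331.3, 334.5, 217.6 and 247.6 CPM in control livers. As for Acaca, the 3 groups did not overlap and CDDO-Me was lowest. Srebf1 was at -2.02 ± 0.16 in NASH vehicle over control livers (edgeR adjusted p = 4.1e-07) and at -0.74 ± 0.16 in CDDO-Me over NASH vehicle livers (edgeR adjusted p = 0.0072). The counts are per gene, so the SREBP-1a and SREBP-1c transcripts are not separated.

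Mlxipl (chr5:135089890-135138382) encodes ChREBP, the glucose-sensing factor. Its level was 202.7, 152.7, 141.1 and 159.6 CPM in CDDO-Me livers, 158.8, 75.2, 144.3 and 84.6 CPM in NASH vehicle livers, and 327.4, 265.2, 327.6 and 393.9 CPM in control livers. The NASH vehicle libraries split into 2 higher and 2 lower values, and the higher pair lay within the CDDO-Me range. Mlxipl fell by 1.51 ± 0.23 on the log2 scale in NASH vehicle livers (edgeR adjusted p = 9.7e-05). CDDO-Me over NASH vehicle was 0.50 ± 0.23 and did not pass (edgeR adjusted p = 0.15), although it did without the first NASH vehicle library (0.70, edgeR adjusted p = 0.043).

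Thrsp (chr7:97412938-97417730) moved furthest. It had 29.98, 10.2, 10.3 and 10.3 CPM in CDDO-Me livers, 14.4, 7.23, 7.17 and 7.45 CPM in NASH vehicle livers, and 265.6, 393.3, 204.0 and 274.6 CPM in control livers. In each NASH group the first library stood above the other three, which were nearly equal. Thrsp was at -4.97 ± 0.45 in NASH vehicle over control livers, a 31.4-fold lower level (edgeR adjusted p = 3.4e-06). With CDDO-Me it was at 0.76 ± 0.40 over NASH vehicle livers and did not pass (edgeR adjusted p = 0.23), and it was 0.18 without the first CDDO-Me library. In TPM, Thrsp was seventh of the 9 genes in both NASH groups, at 18.2 ± 13.3 in CDDO-Me livers and 12.6 ± 4.02 in NASH vehicle livers, and second in control livers, at 224.0 ± 52.0 (SD, n = 4 each).

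The 9 genes together came to 449.8 ± 80.2 TPM in CDDO-Me livers, 411.9 ± 55.5 TPM in NASH vehicle livers and 892.1 ± 89.1 TPM in control livers (SD, n = 4 each). The 2 NASH groups overlapped in this sum, and Slc25a1 was the largest single part of it in CDDO-Me and NASH vehicle livers. Order within groups was shared between genes: the first CDDO-Me library was the highest of its group for 8 of the 9 genes and the first NASH vehicle library likewise for 8, while the third CDDO-Me library was the lowest for 7. The first NASH vehicle library also had the highest hepatocyte marker sum of its group (92362 CPM, others 60054 to 70229) and the lowest macrophage marker sum (1559 CPM, others 2493 to 2949). The first CDDO-Me library lay inside its group in both, at 63373 and 1165 CPM. The part of these markers in the ordering was not tested.

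CDDO-Me livers stayed below control livers. All 9 genes were lower, against 23.6% of all genes lower and 26.2% higher, and all 9 did not overlap, against 43.7% of all genes. The log2 fold change was largest for Thrsp (-4.22 ± 0.43), Acacb (-2.81 ± 0.27), Srebf1 (-2.76 ± 0.17), Fasn (-2.23 ± 0.21) and Acly (-2.08 ± 0.15), with edgeR adjusted p-values of at most 1.3e-05. Acaca was at -1.39 ± 0.13, Acss2 at -1.36 ± 0.21, Mlxipl at -1.0 ± 0.23 and Slc25a1 at -0.55 ± 0.13 (edgeR adjusted p of at most 0.0038). This comparison shares the CDDO-Me and control libraries with the ones above. Mlxipl and Slc25a1 did not pass with library totals (-0.52 and -0.08) or on the log2(TPM + 1) scale, where Mlxipl was at -0.47 and Slc25a1 at 0.06.

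Scaling bears on every comparison with control livers. With library totals in place of TMM, the median over all genes, as a log2 fold change, was 0.62 in NASH vehicle over control, -0.16 in CDDO-Me over NASH vehicle and 0.51 in CDDO-Me over control livers, against -0.01, -0.01 and 0.03 with TMM. Of all calls in NASH vehicle over control, 49.6% were higher with TMM and 88.2% with library totals. In CDDO-Me over NASH vehicle that share was 56.5% with TMM, 36.8% with library totals, and on the log2(TPM + 1) scale 77.0% of its calls were lower. In CDDO-Me over control the share higher was 52.7% with TMM, 88.5% with library totals and 91.6% on the log2(TPM + 1) scale. Less the median of all genes, the median of the 9 genes in NASH vehicle over control livers was -1.80 with TMM and -1.48 on the log2(TPM + 1) scale.

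A second yardstick was the hepatocyte, the main site of this pathway in liver, whose markers were themselves lower with disease. Each gene's log2 CPM was taken relative to the mean of the 16 hepatocyte markers in the same library, and groups were compared by exact permutation with adjustment over 27 tests. Relative to the markers, 6 genes were lower in NASH vehicle than in control livers with no overlap. They were Thrsp by -4.06, Acacb by -1.84, Acss2 by -1.27, Srebf1 by -1.09, Acly by -0.87 and Slc25a1 by -0.29 on the log2 scale (exact permutation p = 0.0286, adjusted p = 0.048 each). Fasn (-0.66, adjusted p = 0.13), Mlxipl (-0.64, adjusted p = 0.091) and Acaca (0.14, adjusted p = 0.52) did not pass by the same exact test. No share of all genes was computed on this yardstick in any comparison. With TMM scaling alone, 54.4% of all genes did not overlap between NASH vehicle and control livers. Whether the counts relative to the markers are particular to these genes was therefore not tested.

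On this yardstick the same 4 genes passed with CDDO-Me, in the same directions. The 16 markers differed little as a set between these groups (median log2 fold change 0.02, 3 higher and 2 lower). The yardstick therefore largely repeats the TMM values here and is not a separate check. Acss2 was 0.88 and Slc25a1 0.65 higher than in NASH vehicle livers, and Srebf1 was at -0.75 and Acaca at -0.62 (exact permutation, adjusted p = 0.048 each). Against control livers, Slc25a1 per hepatocyte marker was 0.36 higher with CDDO-Me (exact permutation, adjusted p = 0.048). Mlxipl was at -0.10 (adjusted p = 0.89), Acss2 at -0.39 (adjusted p = 0.29) and Acaca at -0.47 (adjusted p = 0.22) in that comparison, none passing the exact test, while Thrsp (-3.45), Acacb (-1.96), Srebf1 (-1.83), Fasn (-1.35) and Acly (-1.16) were lower. These calls sit at the smallest p that 4 against 4 libraries allow, and with the median of the markers in place of their mean 0 of 27 passed. The 27 tests were adjusted together, so each adjusted p depends on how many of the others reach that p.

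**Figure D4:**
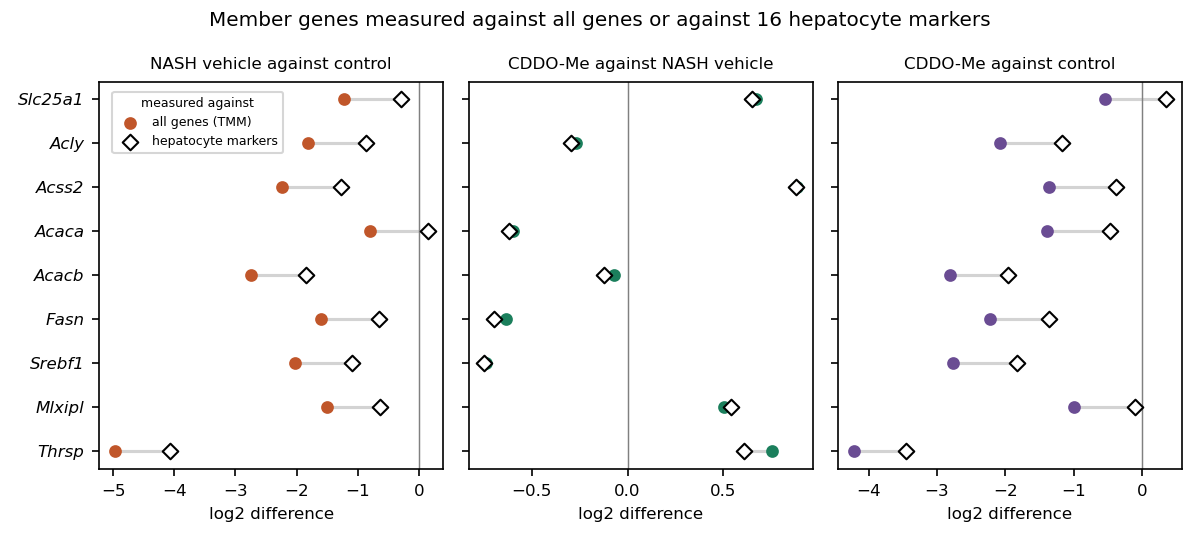
Difference of each gene in log2 units, measured against all genes with TMM scaling (filled circles) and against the mean of 16 hepatocyte markers (open diamonds), in NASH vehicle over control livers (left), CDDO-Me over NASH vehicle livers (middle) and CDDO-Me over control livers (right). The diamonds lie closer to 0 than the circles in both comparisons with control livers, with Acaca at 0.14 at the left and Slc25a1 at 0.36 at the right, and the pairs nearly coincide in the middle panel.

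Genes of SREBP-1 processing and its partners were examined as a list of 13, which includes the escort Scap, its retention proteins Insig1 and Insig2, its sister factor Srebf2 and its NF-Y partners. In NASH vehicle over control livers 5 were lower, 3 were higher and 5 did not pass, shares near the 30.0% lower and 29.6% higher over all genes. Insig1 was at -1.54 ± 0.17 and Scap at -0.94 ± 0.11, Nfya was higher at 1.02 ± 0.14, and Srebf2 (0.08 ± 0.08) and Insig2 (-0.02 ± 0.14) did not pass. With library totals the first count was 9 higher and 2 lower, and on the log2(TPM + 1) scale 10 higher and 1 lower. Over the alternatives Scap ran from -1.03 to -0.13 and did not pass in every one. CDDO-Me over NASH vehicle had 3 lower and 2 higher (7.24% and 9.39% of all genes). Srebf2 fell by 0.43 ± 0.08 (edgeR adjusted p = 0.0039) and Insig2 rose by 0.50 ± 0.14 (edgeR adjusted p = 0.028), while Insig1 (0.06 ± 0.17) and Scap (-0.01 ± 0.11) did not pass. The Insig2 call was lost with 5 of the libraries left out in turn (edgeR adjusted p up to 0.098).

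ChREBP works with its partner Mlx on genes of glucose use. In NASH vehicle over control livers 7 of 9 genes of that list were lower and 1 higher (30.0% and 29.6% of all genes). With library totals 5 were lower and 1 higher, and on the log2(TPM + 1) scale 4 were lower and 2 higher. Pklr, pyruvate kinase of liver, was at -1.90 ± 0.18, Khk, fructokinase, at -1.68 ± 0.16, Gpd1 at -1.46 ± 0.15 and Mlx at -0.91 ± 0.11, whereas Mlxip, the sister of ChREBP, was at 1.17 ± 0.13. Over the alternatives Mlx ran from -0.97 to -0.09 in NASH vehicle over control and did not pass in every one. With CDDO-Me, 8 of the 9 did not pass over NASH vehicle livers, among them Pklr (-0.16 ± 0.17), Gpd1 (0.39 ± 0.15) and Mlx (0.04 ± 0.11). In that comparison 7.24% of all genes were lower and 9.39% higher.

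Among 10 genes of the liver X receptor and thyroid hormone axis, 4 were lower and 2 higher in NASH vehicle than in control livers. Over all genes 30.0% were lower and 29.6% higher. Nr1h3, liver X receptor alpha, was at -0.49 ± 0.10 but at 0.14 with library totals and 0.31 on the log2(TPM + 1) scale. Thrb was at -1.17 ± 0.14, and the cholesterol exporter Abcg1, which macrophages also express, was at 3.18 ± 0.12. With library totals that count was 5 higher and 1 lower. With CDDO-Me, Abcg1 fell by 0.64 ± 0.10 relative to NASH vehicle livers (edgeR adjusted p = 0.0012), and Nr1h3 (-0.19 ± 0.10) did not pass. The macrophage markers given above were lower in the same libraries, and their part in the Abcg1 value was not tested.

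Genes that modulate the carboxylases and the synthase made a list of 11. Of these, 6 were lower and 2 higher in NASH vehicle than in control livers (30.0% and 29.6% of all genes). Mid1ip1, which helps carboxylase polymerize and is related to Thrsp, was at -1.33 ± 0.12, Mlycd, malonyl-CoA decarboxylase, at -0.91 ± 0.12, and Prkaa2, a catalytic subunit of the AMP-activated kinase that inhibits both carboxylases, at -0.91 ± 0.13. With library totals 7 of the 11 were higher and 3 lower, and on the log2(TPM + 1) scale 7 were higher and 1 lower. Over the alternatives Mlycd ran from -0.9769 to -0.1012 and Prkaa2 from -1.004 to -0.09037 in NASH vehicle over control. Neither gene passed in every one. Between CDDO-Me and NASH vehicle livers Prkaa2 was the 1 gene of 11 to pass, a share near the 9.39% of all genes higher. Prkaa2 had 79.6, 99.0, 107.9 and 79.7 CPM in CDDO-Me livers, 43.3, 36.5, 36.6 and 30.6 CPM in NASH vehicle livers and 69.9, 76.5, 61.0 and 69.6 CPM in control livers. CDDO-Me was the highest group with no overlap, at 1.32 ± 0.13 over NASH vehicle (edgeR adjusted p = 2.2e-05). Over all genes, 21.6% did not overlap between CDDO-Me and NASH vehicle livers. Mid1ip1 did not pass (-0.26 ± 0.12).

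Carbon and NADPH for the pathway come from a list of 12 enzymes. Of these, 9 were lower and 2 higher in NASH vehicle than in control livers (30.0% and 29.6% of all genes). Malic enzyme Me1 was at -2.91 ± 0.17, cytosolic malate dehydrogenase Mdh1 at -1.57 ± 0.15 and isocitrate dehydrogenase Idh1 at -1.43 ± 0.13, while G6pdx, the first enzyme of the pentose phosphate pathway, was at 2.11 ± 0.29. With library totals 5 were higher and 4 lower. With CDDO-Me, 9 of the 12 were higher than in NASH vehicle livers and 0 lower, with a median of 0.48, where 9.39% of all genes were higher. On the log2(TPM + 1) scale 5 were higher, with a median of 0.25. The 3 that did not pass included G6pdx (-0.29 ± 0.27). Pgd, the second NADPH-making enzyme of that pathway, was at 1.12 ± 0.13, Tkt at 1.00 ± 0.10, the pyruvate dehydrogenase subunit Pdha1 at 0.98 ± 0.10 and Me1 at 0.73 ± 0.16 (edgeR adjusted p of at most 0.0071).

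Me1 had 75.1, 87.6, 86.9 and 78.0 CPM in CDDO-Me livers, 59.8, 47.6, 46.5 and 43.3 CPM in NASH vehicle livers, and 377.4, 370.6, 261.6 and 473.9 CPM in control livers. Like Slc25a1 and Acss2 it lay between the other groups without overlap. Against control livers Me1 remained at -2.18 ± 0.16 with CDDO-Me, while Pgd was at 2.39 ± 0.14. Of 6 NRF2 readout genes, 6 were higher in CDDO-Me than in NASH vehicle livers (9.39% of all genes), with Nqo1 at 3.21 ± 0.13.

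Downstream of palmitate, 11 genes of desaturation, elongation and triglyceride assembly were examined. In NASH vehicle over control livers 9 were lower and 1 higher (30.0% and 29.6% of all genes). With library totals 5 were lower and 2 higher, and on the log2(TPM + 1) scale 4 were lower and 3 higher. Scd1, the stearoyl-CoA desaturase, was at -6.01 ± 0.43, Elovl6, which lengthens palmitate, at -1.51 ± 0.23, Acsl5 at -1.15 ± 0.15, Dgat2 at -1.08 ± 0.14 and Gpam at -1.04 ± 0.14. With CDDO-Me, Scd1 had 20.99, 12.7, 9.63 and 12.8 CPM, against 314.2, 95.9, 127.0 and 183.0 CPM in NASH vehicle livers and 13807, 11140, 7565 and 13842 CPM in control livers. Every CDDO-Me library was below every NASH vehicle library, at a log2 fold change of -3.68 ± 0.39 (edgeR adjusted p = 5.6e-05). Acsl3 also fell, by 0.72 ± 0.11 (edgeR adjusted p = 7e-04). Over all genes, 7.24% were lower and 9.39% higher in CDDO-Me than in NASH vehicle livers. Of the 11, 9 did not pass, among them Elovl6 (-0.58 ± 0.23, edgeR adjusted p = 0.099) and Gpam (0.33 ± 0.14).

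**Figure D5:**
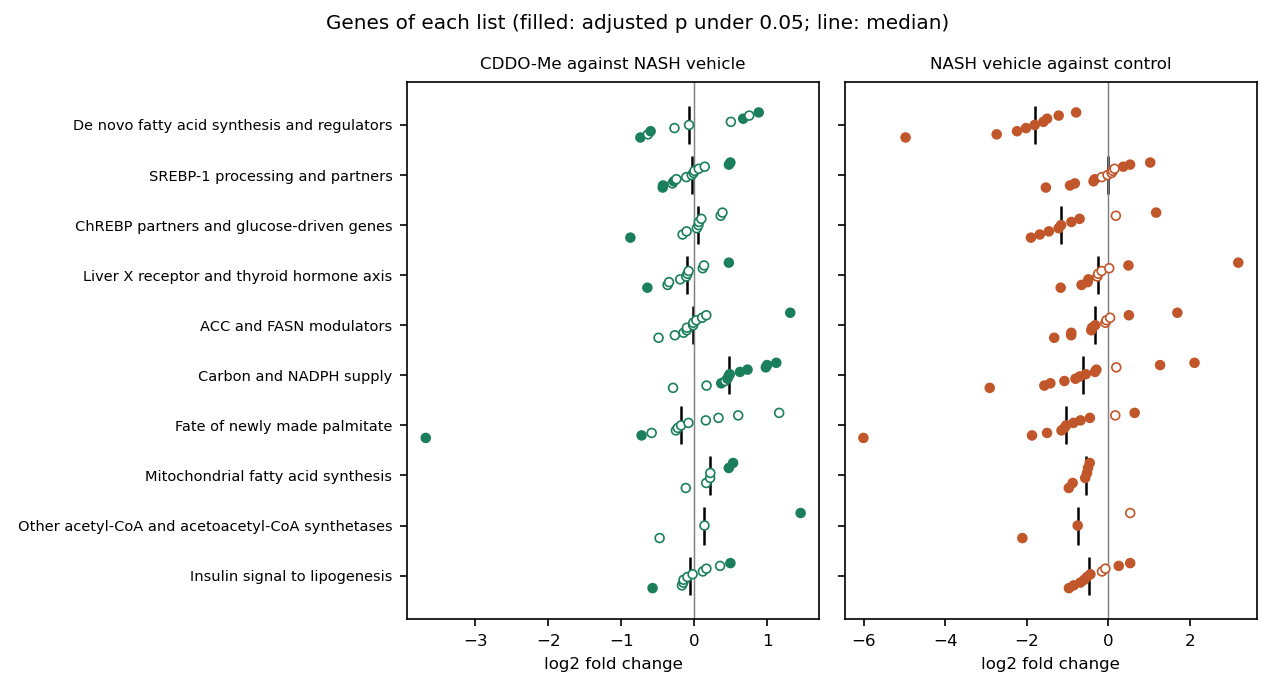
Log2 fold change of each gene (points) by list, in CDDO-Me over NASH vehicle livers (left) and NASH vehicle over control livers (right); filled points have an adjusted p under 0.05 and the vertical line is the list's median. At the left the carbon and NADPH list has 9 filled points above 0 and the 9 fatty acid synthesis genes have 2 above and 2 below; at the right all 9 fatty acid synthesis genes are filled and below 0.

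Of the 7 genes listed for the separate mitochondrial fatty acid synthesis system, 6 were tested. All 6 were lower in NASH vehicle than in control livers (30.0% of all genes), with malonyl transferase Mcat at -0.97 ± 0.11 and a list median of -0.55. On the log2(TPM + 1) scale 2 were higher and 0 lower. Between CDDO-Me and NASH vehicle livers 2 were higher (9.39% of all genes), including Cbr4 at 0.53 ± 0.11. Of the 3 other acyl-CoA synthetases related to Acss2, Aacs was at -2.11 ± 0.29 in NASH vehicle over control livers. The mitochondrial Acss3 rose by 1.46 ± 0.15 in CDDO-Me over NASH vehicle livers (edgeR adjusted p = 4.6e-05). Of 10 insulin signalling genes, 6 were lower and 2 higher in NASH vehicle than in control livers (30.0% and 29.6% of all genes), with Irs1 at -0.97 ± 0.15. With library totals 5 were higher and 1 lower, and on the log2(TPM + 1) scale 5 were higher and 0 lower. Over the alternatives Irs1 ran from -1.05 to -0.13 and did not pass in every one. With CDDO-Me 1 was higher than in NASH vehicle livers and Pik3r1 was lower, at -0.57 ± 0.12 (9.39% of all genes higher, 7.24% lower).

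The same lists were counted in CDDO-Me over control livers, where 23.6% of all genes were lower and 26.2% higher. The SREBP-1 list had 6 lower and 3 higher (2 lower and 8 higher with library totals), with Insig1 at -1.47 ± 0.17, Scap at -0.95 ± 0.11, Srebf2 at -0.35 ± 0.08, Insig2 at 0.47 ± 0.14 and Mbtps2 at 0.53 ± 0.10. Srebf2 was at 0.12 with library totals and 0.22 on the log2(TPM + 1) scale. The ChREBP list had 7 lower and 1 higher (6 lower and 1 higher with library totals), with Pklr at -2.06 ± 0.18, Khk at -1.62 ± 0.16 and Mlx at -0.87 ± 0.11. Nr1h3 was at -0.68 ± 0.10, Abcg1 at 2.54 ± 0.12, Mid1ip1 at -1.59 ± 0.12 and Mlycd at -0.88 ± 0.12. The carbon and NADPH list was even, with 5 lower and 5 higher (4 lower and 7 higher with library totals), among them Idh1 at -0.97 ± 0.13, G6pdx at 1.82 ± 0.28 and Tkt at 0.70 ± 0.10. Of the palmitate list 8 were lower and 1 higher (7 lower and 2 higher with library totals), with Scd1 at -9.69 ± 0.50, Elovl6 at -2.09 ± 0.23 and Acsl3 at -1.18 ± 0.11. Mcat was at -0.75 ± 0.11, Aacs at -1.97 ± 0.28, Pik3r1 at -1.17 ± 0.12 and Nqo1 at 4.48 ± 0.14.

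Profiles over the 12 libraries were compared by the root mean square difference of log2 CPM after centring each gene. The gene nearest to Fasn was Elovl6, at 0.15 log2 units, followed by Pklr (0.25), Zfand4 (0.26), Tm7sf2 (0.30) and Acly (0.32), among 12733 genes. The Fasn profile itself had a root mean square of 0.99. For Thrsp, with a root mean square of 2.27, the nearest were Ces3b (0.48), Cyp2c29 (0.48), Inmt (0.51), Ces2a (0.57) and Lrit2 (0.58). For the mean profile of the 9 genes they were Pklr (0.16), Tlcd2 (0.19), Cmah (0.19), Enpep (0.20) and Lifr (0.20). These distances describe the same 12 libraries and carry no test.

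The share of each gene's reads that lay in introns was also taken, over the same total reads as used above. This share is therefore not a fully separate readout. It was 5.84 ± 2.46% for Thrsp in CDDO-Me livers, 1.69 ± 0.77% in NASH vehicle livers and 0.726 ± 0.713% in control livers (SD, n = 4 each). For Acaca it was 9.32 ± 2.42% in CDDO-Me, 8.13 ± 1.01% in NASH vehicle and 12.1 ± 2.49% in control livers. Over the 15189 tested genes with at least 1 read in every library, the median share per library was 6.45 to 9.04% in CDDO-Me, 5.99 to 8.99% in NASH vehicle and 3.33 to 6.35% in control livers. By exact permutation 0 of 27 differences passed after adjustment, and the lowest adjusted p was 0.064, from an unadjusted 0.0286. That 0.0286 is the smallest p of 4 against 4 libraries, so no gene could pass unless many others reached it too. The test therefore cannot decide on any single gene. For Acss2 the share was 8.98 ± 2.23% in CDDO-Me livers, 6.03 ± 0.63% in NASH vehicle livers and 2.36 ± 1.05% in control livers. Gss overlaps Acss2 on the opposite strand, and its part in this share was not tested.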

How the data were processed

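Poly(A) RNA libraries of 12 mouse livers were analysed (NextSeq, paired-end, per the labels' protocols). Each deposited table gives, per the file headers, whole read counts per gene (total, unique, exon, intron, exon-exon) and TPM, and the deposited TPM equalled exon reads per exon length scaled to a fixed sum, within a relative error of 0.000307. The build is GRCm38 per the submitters' processing notes; the sources used here do not give the aligner, counter or strand setting. Total counts were fitted with edgeR 4.0.16 (TMM, filterByExpr, robust quasi-likelihood, 1 mean per group over 12 libraries), checked on simulated data. Values of p were adjusted over 16456 genes at 0.05. The SE of a log2 fold change was derived from the test, as its absolute value divided by the square root of F. The 95% intervals were built from that SE. Alternatives used limma 3.58.1 and DESeq2 1.42.0. Log2 CPM used a prior count of 2, and the TPM pseudocount was 1. The filter used a minimum count of 10, scaled to library size, and a minimum total of 15. Exact permutation tests were two-sided. Genes named were the 9, 14 set pathway genes, per comparison up to 3 further genes of each list with the lowest p, and the 5 nearest profiles; 1 of the set genes is not reported here. The members and lists were chosen with earlier results of these data known. Counting error only is covered by depth, 28161057 to 33852338 reads per library.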

Additional observations from a re-analysis of the deposited data

Results flagged for a closer look

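In groups of 4, a library was marked when its gap to the nearest other library took up most of the group's range, by Dixon's 95% criterion. Chance alone marks about 1 in 20 groups, and 57 groups were examined, with 12 marked. In CDDO-Me livers the first library was high for Acly (90.89 CPM, others 66.11 to 69.7) and Thrsp (29.98 CPM, others 10.21 to 10.32). In NASH vehicle livers the first library was high for Acss2 (76.47 CPM, others 51.58 to 53.86), Srebf1 (88.46 CPM, others 62.24 to 64.02) and Thrsp (14.43 CPM, others 7.168 to 7.45). In control livers the fourth library was high for Acss2 (439.3 CPM, others 223.9 to 225.6). For intron shares, Acly stood at 1.964% in the second CDDO-Me library and 3.909% in the first control library, Acss2 at 3.922% in the first control library, Srebf1 at 3.629% in the fourth control library, and Thrsp at 9.497% in the fourth CDDO-Me library and 1.793% in the first control library.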

How the results depend on the processing

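Over the alternatives, 9 of 9 genes were lower in both comparisons with control livers except with library totals and on the TPM scales, and the 2 higher genes of CDDO-Me over NASH vehicle became 1 on both TPM scales. Counts over all genes were as follows; the TPM scales change the scaling and the test together. In NASH vehicle over control they were 9908 higher and 1326 lower with library totals, 10905 and 873 on log2(TPM + 1), and 11069 and 872 on log2(TPM + 0.1). In CDDO-Me over NASH vehicle, genes higher were 926, 779 and 719 in the same order, and genes lower were 2607 and 1968 on the TPM scales, 1853 with DESeq2 and 2004 without control library 3 and CDDO-Me library 4. In CDDO-Me over control they were 8678 higher and 1125 lower, 8845 and 812, and 9243 and 817 in that order, and 2866 and 2434 on exon-exon reads, a setting chosen after seeing the data. Leaving out 1 library at a time gave 930 to 1972 higher and 617 to 1453 lower in CDDO-Me over NASH vehicle. Without control library 3 and CDDO-Me library 4 the carboxylase log2 ratio was -2.08 in NASH vehicle over control (exact permutation, adjusted p = 0.086) and -1.62 in CDDO-Me over control (exact permutation, adjusted p = 0.15). Genes passing relative to hepatocyte markers were then 0 in all 3 comparisons, and also 0 with the median of the markers. Leaving out 1 library gave 0 lower in NASH vehicle over control, 0 to 2 higher and 0 to 3 lower in CDDO-Me over NASH vehicle, and 0 higher and 0 to 5 lower in CDDO-Me over control. Leaving out 1 library keeps the smallest p, which is 0.0286 for 4 against 3 libraries as for 4 against 4. Without both libraries, CDDO-Me over control had fewer in each group, so its smallest p was larger. The calls relative to hepatocyte markers sit at the smallest p, and their adjusted p depends on how many of the tests reach it. They were thus not stable to these choices.

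Signs turned as follows, as log2 fold changes. In NASH vehicle over control, Acaca was 0.107 and 0.1166 on the 2 TPM scales, and Nr1h3 was 0.1358 with library totals and 0.3142 and 0.3176 on the TPM scales. Insig2 was 0.01709 with DESeq2 size factors, 0.6067 with library totals, 0.0171 with DESeq2, 0.0009396 with no filter, 0.004828 with a filter of 50 reads, 0.0155 on the 8 libraries compared, and 0.7907 and 0.7937 on the TPM scales. In CDDO-Me over NASH vehicle, Insig1 was -0.1042, -0.181 and -0.1822, and Mlx was -0.1326, -0.1781 and -0.1838, with library totals and on the TPM scales, and Scap was 0.05536 without the 2 libraries above. In CDDO-Me over control, Slc25a1 was 0.06203 and 0.06228 on the TPM scales, and Srebf2 was 0.1175 with library totals and 0.2196 and 0.2287 on the TPM scales. Leaving out 1 library gave Acacb -0.2989 to 0.1542, Insig1 -0.0383 to 0.2088, Scap -0.06636 to 0.08414 and Mlx -0.01577 to 0.09576 in CDDO-Me over NASH vehicle, and Insig2 -0.1015 to 0.02445 in NASH vehicle over control. Beyond the scalings themselves, the cause was not tested.

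Libraries that share a replicate number did not deviate together (12 pairs, r of -0.22 to 0.19, with 2 over 0.1), and 0 libraries correlated best with their own number in both other groups. With the replicate number as a block, genes higher and lower were 4749 and 4723 in NASH vehicle over control, 1250 and 927 in CDDO-Me over NASH vehicle, and 4085 and 3637 in CDDO-Me over control, and 3 of the 9 genes were lower in CDDO-Me over NASH vehicle.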
